A study of Mus musculus with 20 samples.

Results

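Marker genes of macrophages, 10 in number, were followed through RNA-seq libraries of mouse embryonic fibroblast cultures: Csf1r, Lyz2, Ptprc, Spi1, Fcer1g, Aif1, C1qa, Mpeg1, Laptm5 and F13a1. They are 10 of the 45706 genes in the count table, chosen by name, with each symbol matched to 1 Ensembl identifier. All 10 lay among the 14023 genes that reached 1 CPM (count per 1000000 scaled counts) in 2 or more libraries and were tested. Every one of them was counted in all 20 libraries.

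Macrophages are phagocytes of the innate immune system. Those that live in embryonic tissues arise from early haematopoiesis, depend on signals through the CSF1 receptor, clear dying cells and sense microbial products. The transcription factor PU.1, the product of Spi1, is required for their identity and binds purine-rich sites near many myeloid genes. Macrophages carry TLR4, the receptor for bacterial lipopolysaccharide (LPS), and respond to interleukin 1 beta (IL-1b) and tumour necrosis factor (TNF) through NF-kB, a family of transcription factors. They can be carried along when fibroblasts are grown out of whole embryos.

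The cells were primary embryonic fibroblasts of the C57BL/6 strain, and c-Rel, the NF-kB subunit made from the Rel gene, was missing in all of them, controls included. The control genotype is crel-/-. The other genotype, crel-/-RelA-TA-KI, also carries a knock-in at Rela, the gene of the NF-kB subunit RelA, and is called the knock-in here. Neither the residues altered nor the meaning of TA is given in the labels. Cultures were kept overnight in 0.5% serum and left unstimulated (0 h) or given LPS at 100 ng/ml, or IL-1b or TNF at 10 ng/ml, for 0.5, 1 or 3 h. Each of the 20 combinations is 1 library, and the labels name no replicate cultures or batches. The p-values therefore reflect how far these libraries scatter, which may be partly technical, and an agent cannot be told apart from the particular cultures that received it. A genotype is likewise represented by cultures whose number and origin in embryos the labels do not state.

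Library totals lay between 9248151 and 12574135 counts, at which 3 counts, the detection floor used here, equal 0.239 to 0.324 per 1000000 of the total. This floor covers counting error only. The LPS 3 h libraries stood apart, with scaling factors of 0.723 in crel-/- and 0.732 in the knock-in against 0.979 or more in the others. Rel reads were present in both genotypes, at 16.2 to 62.0 CPM in crel-/- and 16.5 to 34.9 CPM in the knock-in, so the count over the whole gene does not check the deletion. Rela was at 72.7 to 354 CPM in crel-/- libraries and at 75.9 to 196 CPM in those of the knock-in. Summed over 10 fibroblast markers (collagens, Fn1, Vim and others), the level was 53500 to 82300 CPM in every library, and the 10 macrophage markers together held 0.168% to 0.491% of all counts.

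The letters GAGGAA, the core of many PU.1 sites, were searched on both strands in the 250 bases before the transcription starts listed by RefSeq (GRCm38.p6), because the genes below share a cell type in which PU.1 is a main regulator. Entries were found for 7 of the 10 genes, and 4 of them held the motif, namely Ptprc, Laptm5, F13a1 and Aif1. It occurs in 23.3% of all 32851 promoters of that length. That share is counted per promoter entry, and the 7 genes hold 9 entries. The 60-base stretches around the match are shown 5′ to 3′ along the gene's own strand, with the match in capitals. TTCCTC is the same motif read from the other strand.
Ptprc, chr1:138175431-138175490, minus strand: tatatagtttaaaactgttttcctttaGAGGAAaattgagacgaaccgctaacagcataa
Laptm5, chr4:130913251-130913310, plus strand: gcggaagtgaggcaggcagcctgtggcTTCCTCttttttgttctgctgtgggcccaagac
F13a1, chr13:37050278-37050337, minus strand: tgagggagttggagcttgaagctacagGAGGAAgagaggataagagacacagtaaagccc
Aif1, chr17:35176053-35176112, minus strand: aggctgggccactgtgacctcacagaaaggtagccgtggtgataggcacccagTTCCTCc
The match begins 158 bases before the start in Ptprc, 38 in Laptm5, 66 in F13a1 and 7 in Aif1. Those of Ptprc, Laptm5 and Aif1 lie inside the gene spans used for counting, which begin upstream of these RefSeq starts. Letters of the C/EBP type (TTGCNNAA, N being any base, in 9.56% of promoters), the AP-1 type (TGANTCA, 6.75%) and a 10-base NF-kB type (0.98%) were found in 0 of the 7 genes. These are matches of letters in short windows. Binding was not measured.

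Taken per kilobase of exon, the 10 genes differed widely in level and their order hardly changed from library to library. The exon length is the 1 value per gene given with the counts, used for all libraries. It ran from 874 bases for Fcer1g to 18313 for Ptprc, so the order depends on it. Before division by length, Ptprc (median 84.7 CPM) lay above Aif1 (median 12.4 CPM). Lyz2, the lysozyme of macrophages, was the most abundant, with a median over the 20 libraries of 1080 CPM per kb. C1qa, a chain of complement C1q, followed at 213, Mpeg1, the pore-forming protein perforin-2 of phagosomes, at 147, and Fcer1g, the signalling chain of Fc receptors, at 107 CPM per kb. Csf1r, the receptor for CSF1 and IL-34, lay at 76.1 and Laptm5, a lysosomal membrane protein of haematopoietic cells, at 73.0 CPM per kb. Spi1 lay at 18.8, Aif1, the actin-binding protein IBA1, at 8.12, Ptprc, the pan-leukocyte phosphatase CD45, at 4.63 and F13a1, the A subunit of coagulation factor XIII, at 0.403 CPM per kb. Neighbours in this order kept their places in 20 of 20 libraries, apart from Csf1r over Laptm5 (13 of 20) and Aif1 over Ptprc (18 of 20). The values that follow are CPM and are compared within a gene only.

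**Figure D1:**
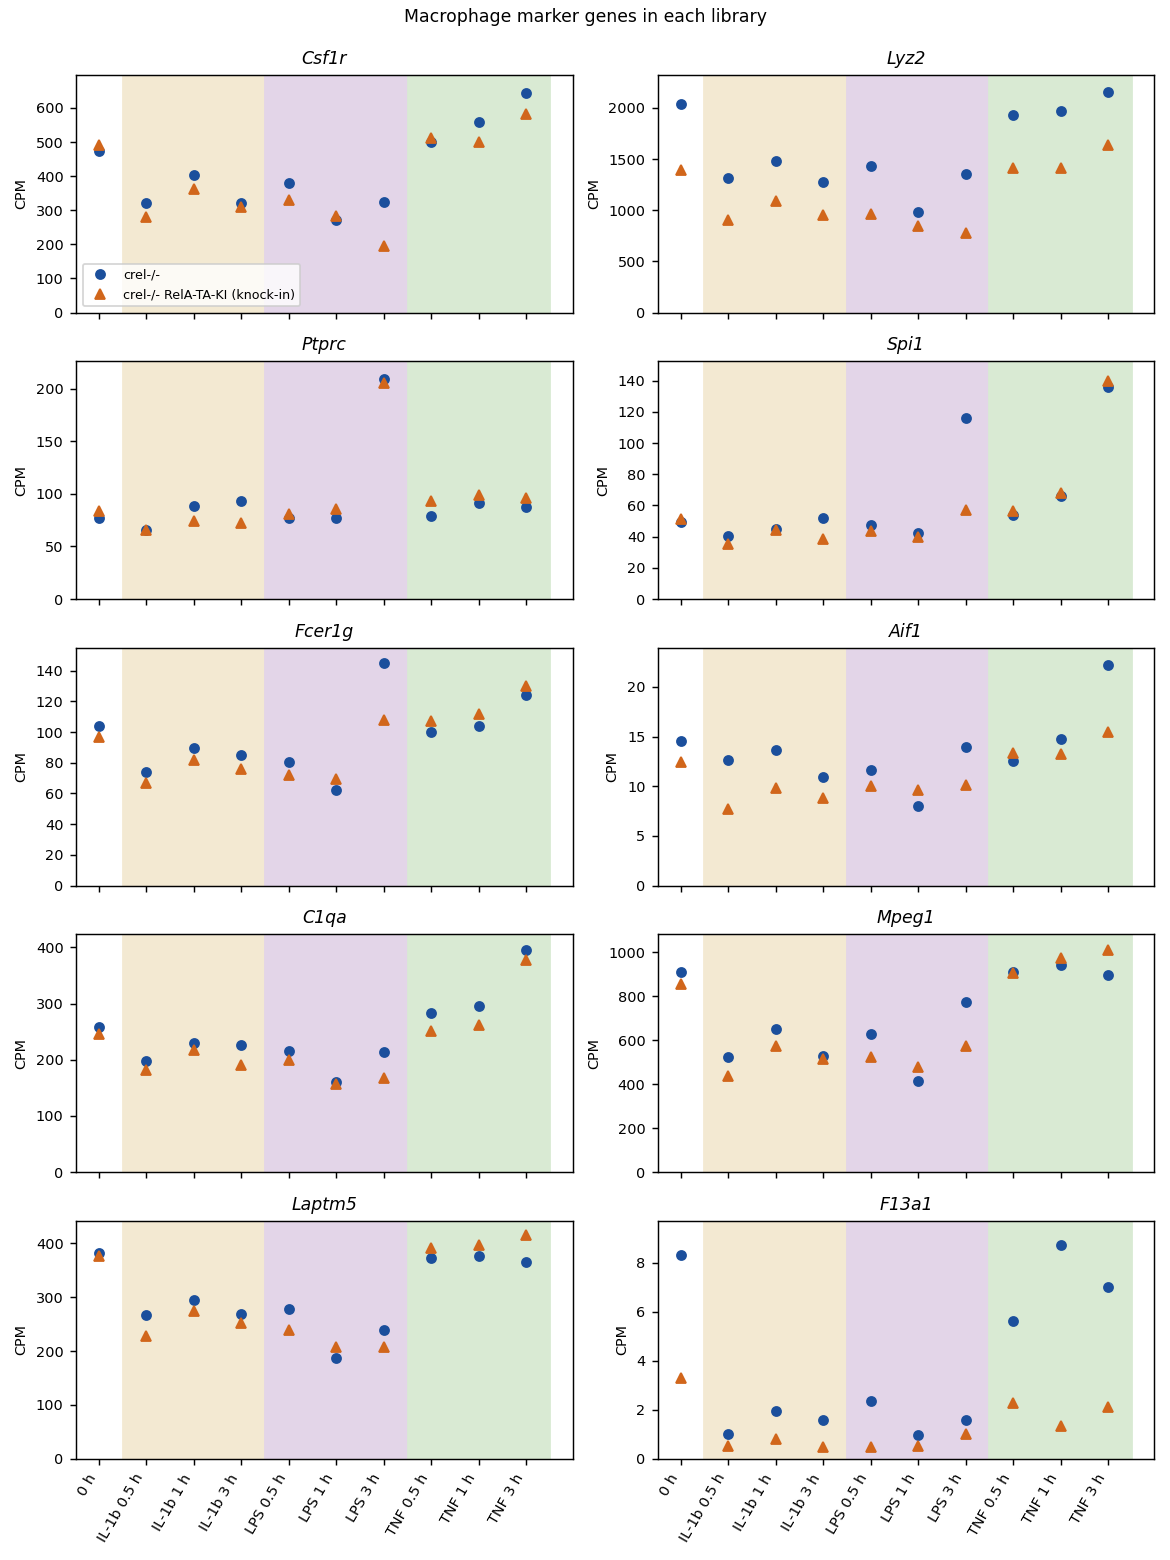
Level of each of the 10 macrophage marker genes in CPM (vertical axes, from 0) in each of the 20 libraries, by agent and time (horizontal axis). Circles are crel-/- and triangles knock-in libraries, 1 per point, with no error bars since each condition has 1 library per genotype. Csf1r, C1qa, Mpeg1 and Laptm5 lie higher in all 6 TNF libraries than in all 12 IL-1b and LPS libraries, and Ptprc is highest in both LPS 3 h libraries.

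Spi1 (ENSMUSG00000002111.8, GRCm38 chr2:91082390-91115756, plus strand) varied most over the 20 libraries after F13a1, with an SD of log2 CPM of 0.58 against 1.22 for F13a1 and 0.34 to 0.45 for the other 8. Unstimulated cells held 49.7 CPM in crel-/- and 51.5 CPM in the knock-in. Under TNF the level was 53.8, 66.1 and 136 CPM at 0.5, 1 and 3 h in crel-/-, and 56.7, 68.0 and 140 CPM in the knock-in. Both 3 h values lay above every library of the other conditions. Under LPS it was 47.7, 42.3 and 116 CPM in crel-/-, but 43.6, 39.9 and 57.3 CPM in the knock-in, so that at 3 h the genotypes lay apart. Under IL-1b all 6 libraries lay between 35.5 and 52.0 CPM, with a median of 42.5. Spi1 rose by a fitted log2 change of 1.45 (SE 0.21, adjusted p = 5.36e-04, edgeR's quasi-likelihood test) at 3 h of TNF against 0 h. At 3 h of LPS it rose by 0.75 (SE 0.22, adjusted p = 0.011). That call was lost without the crel-/- LPS 3 h library, where the change was 0.23 (adjusted p = 0.19), and without the crel-/- 0 h library (0.62, adjusted p = 0.089).

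Csf1r (ENSMUSG00000024621.13, GRCm38 chr18:61105572-61132149, plus strand) is the receptor on which macrophage survival depends. It was counted at 473 CPM in crel-/- and 490 CPM in the knock-in at 0 h. The 6 TNF libraries ranged from 499 to 644 CPM, with a median of 536, the 6 IL-1b libraries from 279 to 402 (median 322) and the 6 LPS libraries from 195 to 381 (median 304). All TNF libraries, and both at 0 h, lay above all IL-1b and LPS libraries. The lowest value, 195 CPM, was that of the knock-in at 3 h of LPS, where crel-/- held 325 CPM. Csf1r was lower at 3 h of LPS than at 0 h by a log2 change of -0.91 (SE 0.14, adjusted p = 1.76e-04). It was at -1.51 with library totals alone, and at -0.60 without the knock-in and -1.25 without the crel-/- LPS 3 h library. Some of its exons overlap those of Hmgxb3 on the opposite strand, which held 10481 counts in all against 89457 for Csf1r, and the strand setting of the counting is not given in the sources used here.

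Ptprc (ENSMUSG00000026395.14, GRCm38 chr1:138062861-138175708, minus strand) encodes CD45, carried by all white blood cells. At 0 h it lay at 77.4 CPM in crel-/- and 83.5 CPM in the knock-in. Its levels after LPS were 76.7, 77.5 and 209 CPM at 0.5, 1 and 3 h in crel-/-, and 81.3, 85.9 and 205 CPM in the knock-in. The 16 libraries outside 0 h and LPS 3 h held 65.7 to 99.2 CPM, so both LPS 3 h libraries stood above all the rest. The rise at 3 h of LPS against 0 h was 1.36 on the log2 scale (SE 0.12, adjusted p = 6.93e-07). With library totals in place of the scaling factors, which lowers the median of all genes in that contrast by 0.62, it was 0.76 (adjusted p = 3.88e-05).

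Fcer1g (ENSMUSG00000058715.9, GRCm38 chr1:171229572-171234365, minus strand) carries the activating motif through which several Fc receptors signal. It lay at 104 and 97.0 CPM at 0 h in crel-/- and the knock-in. The levels under LPS were 80.3, 62.2 and 145 CPM in crel-/- and 72.1, 69.4 and 108 CPM in the knock-in. Under TNF they were 100, 104 and 124 CPM in crel-/-, and 107, 112 and 130 CPM in the knock-in, while IL-1b gave 66.9 to 89.3 CPM (median 79.0). The early IL-1b and LPS libraries were thus low and those of 3 h under LPS or TNF high. Fcer1g rose against 0 h at 3 h of TNF (0.34, SE 0.11, adjusted p = 0.03) and at 3 h of LPS (0.33, SE 0.11, adjusted p = 0.021), relative to a median of -0.01 over all genes in that contrast. With library totals alone the LPS value was -0.27 (adjusted p = 0.029), so its direction rests on the scaling. Leaving out the crel-/- 0 h library ended the call for TNF (adjusted p = 0.11) and for LPS (adjusted p = 0.068).

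C1qa (ENSMUSG00000036887.5, GRCm38 chr4:136895917-136898803, minus strand) encodes 1 of the chains of C1q, the recognition molecule of the classical complement pathway, which tissue macrophages produce. Its 0 h values were 258 CPM in crel-/- and 246 CPM in the knock-in. TNF gave 283, 295 and 395 CPM at the successive times in crel-/-, and 252, 261 and 378 CPM in the knock-in. The IL-1b libraries held 181 to 230 CPM (median 208) and the LPS libraries 157 to 215 CPM (median 183), all below the 8 libraries of 0 h and TNF. C1qa rose at 3 h of TNF against 0 h by 0.62 (SE 0.07, adjusted p = 8.61e-05).

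Lyz2 (ENSMUSG00000069516.7, GRCm38 chr10:117277334-117282274, minus strand) digests bacterial cell walls, and its near-identical neighbour Lyz1 held 215 counts in all against 302861 for Lyz2, a split that depends on how reads with several matches were counted. At 0 h it was 2040 CPM in crel-/- and 1390 CPM in the knock-in. TNF libraries held 1930, 1970 and 2160 CPM in crel-/-, and 1410, 1410 and 1640 CPM in the knock-in. IL-1b libraries held 1310, 1480 and 1280 CPM in crel-/-, against 907, 1090 and 949 CPM in the knock-in. With LPS the values were 1430, 979 and 1350 CPM in crel-/-, and 964, 844 and 777 CPM in the knock-in. At each of the 10 conditions the crel-/- library was the higher of the pair.

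Mpeg1 (ENSMUSG00000046805.9, GRCm38 chr19:12460779-12465284, plus strand) kills engulfed bacteria by forming pores. It was counted at 910 and 855 CPM at 0 h in crel-/- and the knock-in, at 895 to 1010 CPM under TNF (median 925), 436 to 649 CPM under IL-1b (median 525) and 415 to 772 CPM under LPS (median 548). Laptm5 (ENSMUSG00000028581.15, GRCm38 chr4:130913125-130936141, plus strand) takes part in lysosomal degradation of receptors in leukocytes. It lay at 382 and 377 CPM at 0 h, at 366 to 415 CPM under TNF (median 385), 228 to 294 CPM under IL-1b (median 268) and 188 to 278 CPM under LPS (median 224). For both genes the ranges of TNF and of the other agents did not overlap.

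Aif1 (ENSMUSG00000024397.12, GRCm38 chr17:35170991-35176068, minus strand), known from staining of microglia, was low, at 14.5 CPM in crel-/- and 12.4 CPM in the knock-in at 0 h. It ranged from 12.5 to 22.2 CPM under TNF (median 14.0), 7.67 to 13.6 CPM under IL-1b (median 10.4) and 7.99 to 13.9 CPM under LPS (median 10.1), so that the ranges overlapped. F13a1 (ENSMUSG00000039109.13, GRCm38 chr13:36867178-37050244, minus strand), a transglutaminase that crosslinks fibrin, rested on 5 to 103 counts per library. It held 8.30 CPM in crel-/- and 3.31 CPM in the knock-in at 0 h, 5.62, 8.73 and 7.02 CPM under TNF in crel-/-, and 2.27, 1.35 and 2.11 CPM under TNF in the knock-in. The 12 IL-1b and LPS libraries held 0.478 to 2.36 CPM, with those of the knock-in at 1.00 CPM or less.

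The agents were compared over the mean of the 3 times, with 6 libraries a side and without the 0 h libraries. Every marker was lower with IL-1b than with TNF, and 9 of 10 were lower with LPS than with TNF, the exception being Ptprc. For IL-1b against TNF, 10 of 10 markers passed the test in the lower direction (15.2% of all tested genes did), with a median log2 change of -0.58 (all genes, 0.01). For LPS against TNF, 9 were lower and 1 higher (21.5% and 21.5% of all genes), with a median of -0.74 (all genes, -0.01). C1qa differed by -0.73 (SE 0.04, adjusted p = 2.84e-08) between LPS and TNF, and Csf1r by -0.90 (SE 0.08, adjusted p = 4.61e-06). F13a1 showed the widest gap of the 10, -1.95 (SE 0.23, adjusted p = 2.02e-05). Ptprc was higher with LPS than with TNF by 0.28 (SE 0.07, adjusted p = 0.0062). With library totals in place of scaling factors, which lowers the median of all genes by 0.19 here, Ptprc was at 0.09 (adjusted p = 0.26), and 0 markers were called higher and 9 lower.

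Because the LPS 3 h libraries stood apart, the comparison was repeated over 0.5 and 1 h, a choice made after seeing the data. Then 9 of 10 markers were lower with LPS than with TNF (11.4% of all genes) and 9 of 10 lower with IL-1b than with TNF (9.77%). Ptprc was at -0.17 (adjusted p = 0.17) for LPS minus TNF in this early window, and Aif1 at -0.32 (adjusted p = 0.12) for IL-1b minus TNF. In CPM, all 6 TNF libraries lay above all 12 IL-1b and LPS libraries for 4 markers, Csf1r, C1qa, Mpeg1 and Laptm5 (1.35% of the tested genes have that pattern). The 6 libraries of 0 h and early TNF lay above all 8 early IL-1b and LPS libraries for 6 markers, these 4 with Spi1 and Fcer1g (4.83% of genes). In bulk RNA, fewer macrophages and less marker RNA in each macrophage cannot be told apart.

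**Figure D2:**
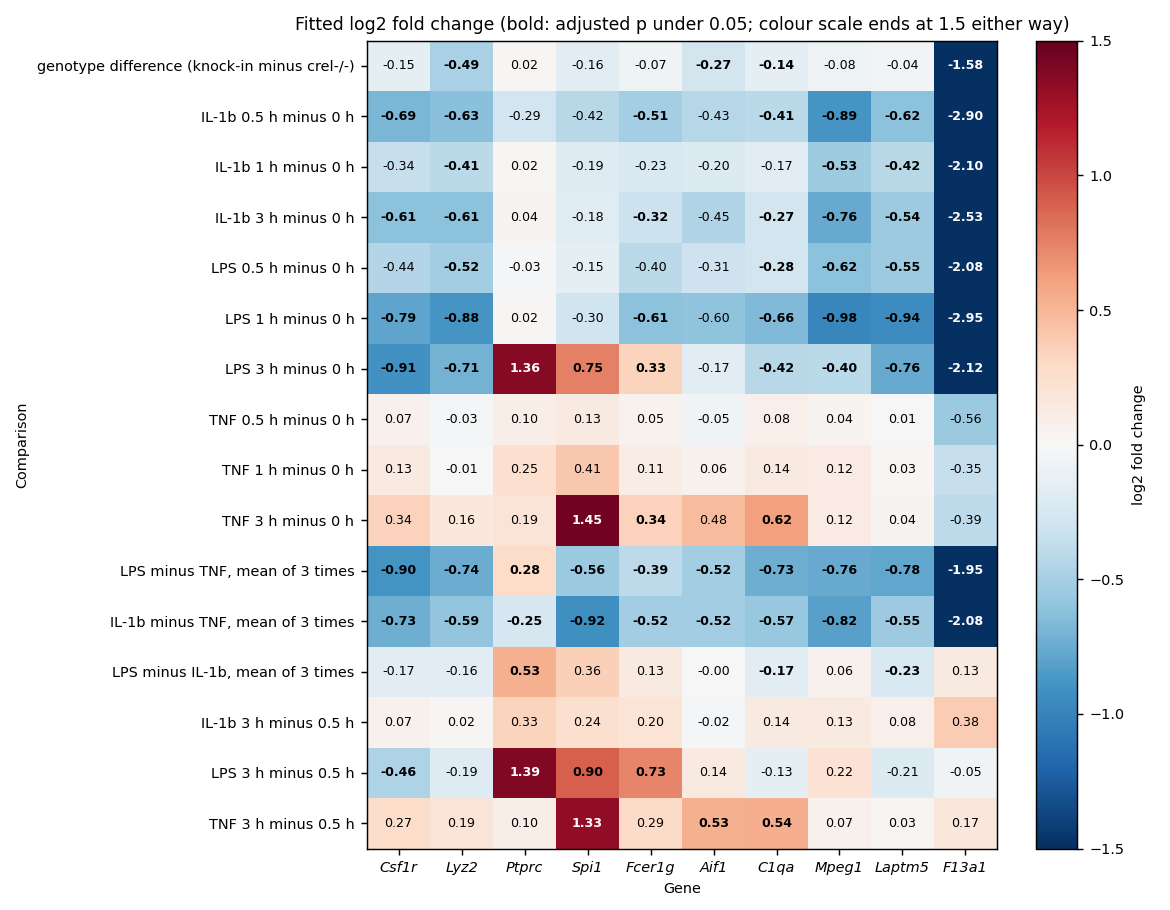
Fitted log2 fold change of each marker gene (columns) in each comparison (rows), printed in the cells and coloured from blue (lower) to red (higher), with the colour scale ending at 1.5 either way. Bold values passed an adjusted p of 0.05. The IL-1b and LPS rows against 0 h are mostly blue, and in the TNF rows the bold values are Spi1, C1qa and Fcer1g at 3 h.

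LPS and IL-1b differed less from each other. Ptprc was higher with LPS by 0.53 (SE 0.07, adjusted p = 1.51e-04), the 1 marker called higher, close to the share of all genes (12.4%). C1qa (-0.17, adjusted p = 0.0094) and Laptm5 (-0.23, adjusted p = 0.01) were the 2 called lower (11.7% of all genes). Without the knock-in LPS 3 h library 3 markers were called higher, without the crel-/- LPS 3 h library 4 were called lower, and over 0.5 and 1 h alone 0 were called in either direction. With library totals alone, 1 was higher and 4 lower, the median of all genes being lower by 0.17.

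Some of the markers were already lower than at 0 h after 0.5 h of IL-1b or LPS. All contrasts with 0 h share the same 2 unstimulated libraries, so they are not independent of each other. At 0.5, 1 and 3 h of IL-1b, 7, 4 and 7 of the 10 markers were called lower (5.36%, 7.12% and 13.8% of all tested genes) and 0 higher. At 0.5 h of IL-1b, Mpeg1 fell by 0.89 in log2 terms (SE 0.13, adjusted p = 9.99e-04) and Lyz2 by 0.63 (SE 0.09, adjusted p = 9.99e-04). At 0.5, 1 and 3 h of LPS, 5, 7 and 6 were called lower (2.46%, 6.08% and 28.3% of all genes). At 1 h of LPS, Laptm5 fell by 0.94 (SE 0.10, adjusted p = 5.49e-05) and C1qa by 0.66 (SE 0.07, adjusted p = 6.30e-05). At 3 h of LPS, 3 were called higher, close to the share of all genes (29.2%), namely Ptprc, Spi1 and Fcer1g. With library totals alone 1 was higher and 8 lower at that time.

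These counts moved when single libraries were left out. At 1 h of IL-1b the count of 4 became 0 without the crel-/- IL-1b 1 h library and 1 without its knock-in partner. It became 1 when the crel-/- 0 h library was left out, 2 when that of the knock-in was, and 7 with library totals alone. At 3 h of IL-1b it was 4 without the knock-in 0 h library. At 0.5 h of LPS it was 1 without the knock-in LPS 0.5 h library, and 2 or 3 when the 0 h library of crel-/- or of the knock-in was left out. The 3 markers called higher at 3 h of LPS became 1 without the crel-/- 0 h or the crel-/- LPS 3 h library.

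Under TNF, the markers called against 0 h were those of 3 h. At 0.5 h, 0 of 10 were called in either direction (0.392% of all genes), with changes between -0.56 for F13a1 and 0.13 for Spi1. At 1 h, 0 were called in either direction as well (4.03% of all genes). At both times 0 markers had an unadjusted p under 0.05 and 0 were called by DESeq2, but at 1 h 1 was called higher without either of the LPS 3 h libraries. At 3 h, Spi1, C1qa and Fcer1g were called higher (3 of 10, against 18.7% of all genes) and 0 lower. Csf1r was at 0.34 (adjusted p = 0.081) and Aif1 at 0.48 (adjusted p = 0.051) at that time.

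Change during stimulation was also measured without the 0 h libraries, as 3 h minus 0.5 h. Under TNF, 3 markers rose (17.1% of all genes): Spi1 by 1.33 (SE 0.21, adjusted p = 9.91e-04), C1qa by 0.54 (SE 0.07, adjusted p = 2.05e-04) and Aif1 by 0.53 (SE 0.18, adjusted p = 0.036). The call for Aif1 was lost without the crel-/- TNF 0.5 h library (0.33, adjusted p = 0.33), and without either LPS 3 h library 5 markers were called. Under LPS, 3 of 10 rose, close to the share of all genes (27.0%). They were Ptprc, by 1.39 (SE 0.12, adjusted p = 7.20e-07), Spi1, by 0.90 (SE 0.22, adjusted p = 0.0042), and Fcer1g, by 0.73 (SE 0.11, adjusted p = 1.06e-04). Csf1r was the 1 that fell (27.0% of all genes), by 0.46 (SE 0.14, adjusted p = 0.016), and this call was lost without the knock-in LPS 3 h library (-0.16, adjusted p = 0.20) or the crel-/- LPS 0.5 h library. Without the crel-/- LPS 3 h library 3 were called lower. With library totals alone Spi1 was at 0.38 (adjusted p = 0.11) and Fcer1g at 0.22 (adjusted p = 0.083), the median of all genes being lower by 0.53, and 1 marker was called higher and 5 lower. Under IL-1b, 0 of 10 were called in either direction (21.8% of all genes), also by DESeq2. Ptprc, at 0.33, was the 1 with an unadjusted p under 0.05 and was called without the knock-in IL-1b 3 h library.

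**Figure D3:**
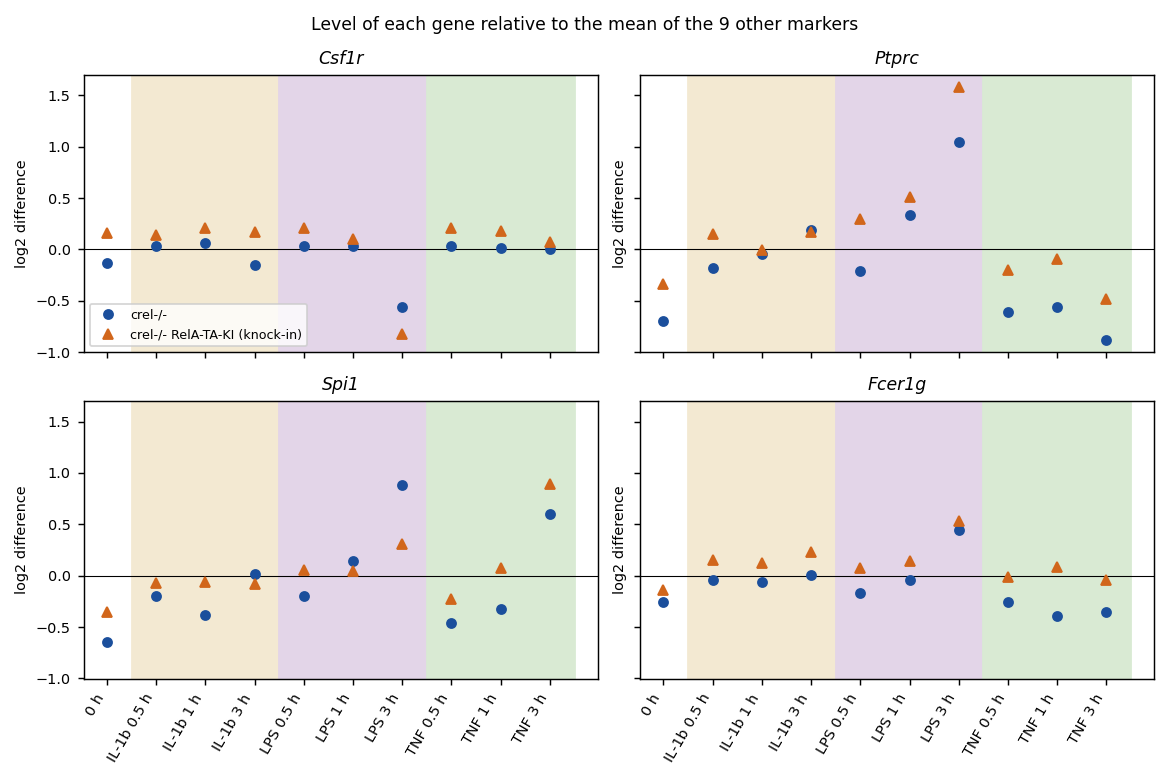
Level of Csf1r, Ptprc, Spi1 and Fcer1g in each library relative to the mean of the 9 other markers (vertical axes, log2 difference, each gene first centred on its mean over the 20 libraries), by agent and time (horizontal axis). Circles are crel-/- and triangles knock-in libraries. At LPS 3 h Ptprc stands at 1.05 and 1.58 above the others and Csf1r at -0.56 and -0.82.

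Relative to one another, 9 of the 10 markers varied with the mean of the others, and Ptprc hardly did. The correlation of a gene's log2 CPM with the mean of the 9 others over the 20 libraries, given as a description since libraries share agents and genotypes, was 0.93 for Mpeg1, 0.91 for Aif1, 0.89 for C1qa, 0.88 for Lyz2, 0.83 for Fcer1g, 0.82 for Csf1r and Laptm5, 0.78 for F13a1, 0.71 for Spi1 and 0.12 for Ptprc. Over the 45 pairs of markers the median r was 0.74, from -0.24 for Csf1r with Ptprc to 0.93 for Csf1r with Laptm5. After each gene was centred on its own mean, Ptprc stood above the mean of the others by 1.05 in the crel-/- and 1.58 in the knock-in library of LPS 3 h, the highest of its 20 values. Csf1r stood at -0.56 and -0.82 in the same libraries and within 0.21 of the others elsewhere. Spi1 stood at 0.60 and 0.89 at 3 h of TNF and at 0.88 in crel-/- at 3 h of LPS. F13a1, the gene with the fewest counts, departed most (SD of its difference from the others 0.98, against 0.59 for Ptprc), from 1.91 in crel-/- at 0 h to -1.26 in the knock-in at 0.5 h of LPS. The summed level of the 10 markers was 3600 to 4320 CPM at 0 h, 3750 to 4840 CPM under TNF, 2210 to 3290 CPM under IL-1b and 2180 to 3380 CPM under LPS.

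The knock-in libraries held less of 4 markers than the crel-/- libraries did. A difference of genotype cannot be told apart here from one between the cultures used, whose number and origin are not stated. Over the 10 matched pairs, Lyz2 differed by a log2 change of -0.49 (SE 0.04, adjusted p = 5.40e-06) and F13a1 by -1.58 (SE 0.18, adjusted p = 4.48e-05), each lower in 10 of 10 pairs. C1qa was lower by -0.14 (SE 0.03, adjusted p = 0.0081), also in 10 of 10 pairs. Aif1 was at -0.27 (SE 0.08, adjusted p = 0.046), lower in 8 of 10 pairs, and this call was lost when any of 16 of the 20 libraries was left out, and without both LPS 3 h libraries (-0.26, adjusted p = 0.079). In all, 4 of 10 markers were called lower (7.81% of all genes) and 0 higher (7.99%). The knock-in to crel-/- ratio of Lyz2 lay between 0.577 at LPS 3 h and 0.862 at LPS 1 h, and was 0.679 at 0 h. That of F13a1 lay between 0.155 at TNF 1 h and 0.628 at LPS 3 h.

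The remaining 6 markers were not called between genotypes. Csf1r was at -0.15 (SE 0.06, adjusted p = 0.14), Spi1 at -0.16 (SE 0.10, adjusted p = 0.30), Mpeg1 at -0.08, Fcer1g at -0.07, Laptm5 at -0.04 and Ptprc at 0.02 (SE 0.05). Spi1 had its widest gap at LPS 3 h, where the knock-in held 0.493 of the crel-/- level, against 0.734 to 1.05 in the other pairs. Without both LPS 3 h libraries its genotype difference was -0.07 (adjusted p = 0.41). Whether the genotype difference varied with the agent was tested in the 18 stimulated libraries, and 0 of 10 markers were called by edgeR or DESeq2 (0.0285% of all genes, or 4, by edgeR). The lowest value was that of Ptprc, whose genotype difference was -0.22 with IL-1b, 0.07 with LPS and 0.16 with TNF (unadjusted p = 0.008, adjusted p = 0.35). It was the 1 marker with an unadjusted p under 0.05.

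Other macrophage and myeloid genes were counted in lists by role. For comparison, 21.5% of all genes were lower and 21.5% higher with LPS than with TNF. With IL-1b against TNF, 15.2% were lower and 15.2% higher. Of 13 tested receptors and adaptors, 10 were lower and 0 higher with LPS than with TNF (median -0.59) and 10 lower with IL-1b than with TNF (median -0.54). Cx3cr1, the fractalkine receptor of tissue macrophages, ranged from 9.13 to 208 CPM and was lower with LPS by -1.79 (SE 0.13, adjusted p = 1.37e-06), while Itgam, the integrin chain CD11b, was at -0.06 (adjusted p = 0.61). Of 10 scavenging and lysosomal genes, 6 were lower and 2 higher with LPS than with TNF (median -0.43). Cd68 was at -0.56 (adjusted p = 2.08e-05) and Gpnmb at -0.67 (adjusted p = 8.71e-07). All 6 complement and secreted genes tested were lower with LPS than with TNF (median -0.59) and all 6 were lower with IL-1b than with TNF (median -0.57). Over the alternatives tried, either count ranged from 4 to 6.

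The same 6 complement and secreted genes were called higher at 3 h of TNF than at 0 h (median 0.70, against 18.7% of all genes called higher). Over the alternatives tried, 4 to 6 were called higher. Among them were C5ar1, the C5a receptor, by 2.46 (adjusted p = 5.23e-04), and C1qb, a partner chain of C1qa, by 0.47 (adjusted p = 0.0019). The other lists were mixed at 3 h of TNF. Of 13 receptors and adaptors, 1 was higher and 1 lower (median 0.02), and of 10 scavenging and lysosomal genes 2 and 1 (0.12). Of 13 signalling and cytoskeletal genes, 5 were higher and 1 lower (0.46), and of 10 transcription factors 3 and 5 (-0.47). Of 13 signalling and cytoskeletal genes, 8 were lower and 0 higher with LPS than with TNF (median -0.31). Of 10 myeloid transcription factors, 2 were lower, close to the share of all genes, and 4 higher (median -0.11) with LPS than with TNF. Over 0.5 and 1 h alone 0 were higher, and leaving out any of 12 libraries brought the 2 to 1. Over the alternatives tried, the number lower ranged from 1 to 5 and the number higher from 0 to 4. Irf5, a factor of inflammatory macrophages, rose by 1.32 (adjusted p = 4.54e-04) at 3 h of TNF. Between genotypes, Cfp, the complement regulator properdin, was lower in the knock-in by -0.86 (SE 0.05, adjusted p = 5.14e-07) and Cybb, the catalytic chain of the phagocyte oxidase, by -0.60 (SE 0.09, adjusted p = 0.0013). Csf1, the main ligand of Csf1r, lay between 126 and 1470 CPM and was lower in the knock-in by -1.63 (SE 0.32, adjusted p = 0.0073). Il34, the other ligand, stayed at or below 4.80 CPM.

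**Figure D4:**
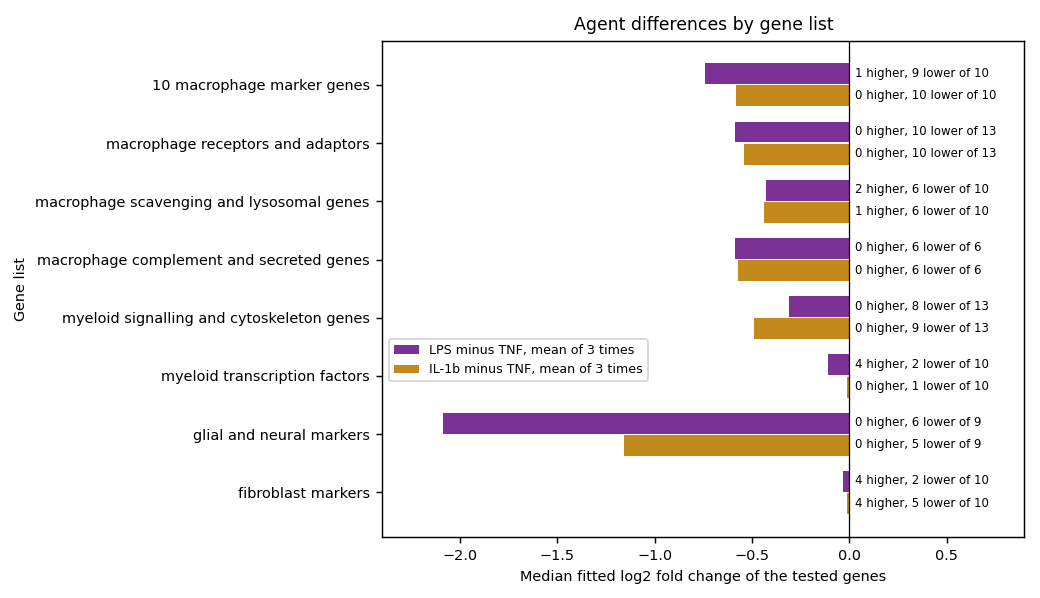
Median fitted log2 fold change (horizontal axis) of the tested genes of 8 lists (vertical axis) for LPS minus TNF (purple) and IL-1b minus TNF (brown), each over the mean of the 3 times, with the number of genes called higher and lower beside each bar. The macrophage lists lie between -0.31 and -0.74, the myeloid transcription factors and fibroblast markers near 0, and the glial list at -2.09 for LPS.

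Genes of the same pattern were sought among the other 14013 tested genes by the correlation of log2 CPM with the mean standardised level of the 10 markers over the 20 libraries. The 10 most alike were C1qb (r = 0.969), Ctsb (0.959), Ctss (0.951), Cd68 (0.948), C1qc (0.944), Mdk (0.943), Ctsz (0.943), Igf1 (0.926), Serpinh1 (0.923) and Rac2 (0.922). Of these, C1qb, C1qc, Ctss and Cd68 stood in the lists above, and Ctsb, Mdk, Ctsz, Igf1, Serpinh1 and Rac2 did not. Ctsb and Serpinh1 had means of 2900 and 2510 CPM, above the 1370 CPM of Lyz2. Which cells of the culture held their RNA was not tested. In all 20 genes reached an r of 0.9 or more, and 7 of them came from the lists. The points share agents and genotypes, so the values are a description.

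Markers of other blood cells were mostly low. None of 12 T, B and NK cell markers passed the filter, Cd3e, Cd3d, Cd3g, Cd8a and Ncr1 among them had 0 counts in every library, and the sum of the list was at most 2.12 CPM. The 8 neutrophil markers summed to at most 4.06 CPM, the 10 mast cell markers to 2.91 to 27.4 CPM, with Tpsb2 and Fcer1a at 0, the 7 dendritic cell markers to 2.41 to 18.3 CPM and the 8 erythroid and megakaryocyte markers to 6.77 to 11.5 CPM. The highest mast cell sum was mostly Hdc, at up to 24.5 CPM, so that some of these genes reached the level of Aif1 or F13a1. Markers of several non-blood cell types differed between the agents as well. The 10 glial and neural markers summed to 36.7 to 86.5 CPM at 0 h, 32.7 to 62.0 CPM under TNF, 17.4 to 30.3 CPM under IL-1b and 13.4 to 25.6 CPM under LPS. Of these, 6 of the 9 tested were lower with LPS than with TNF (21.5% of all genes). The 8 skeletal muscle markers summed to 21.5 to 24.9 CPM at 0 h and 21.7 to 28.6 CPM under TNF, against 7.73 to 13.6 CPM under IL-1b and 7.97 to 17.3 CPM under LPS, but only Des passed the filter, and at 7.65 to 28.5 CPM it made up most of that sum. The 8 epithelial markers summed to 9.43 to 18 CPM at 0 h, 12.7 to 20.4 CPM under TNF, 6.79 to 11.6 CPM under IL-1b and 6.61 to 12.9 CPM under LPS. The 10 endothelial markers summed to 21.8 to 24.3 CPM at 0 h, 16.7 to 27.2 CPM under TNF, 14.1 to 23.7 CPM under IL-1b and 19.8 to 80.4 CPM under LPS. Of the 4 tested, 1 was higher and 1 lower with LPS than with TNF (21.5% and 21.5% of all genes), with a median of 0.06. Kdr, at 6.59 to 69.7 CPM over the 20 libraries, was the higher one, at 0.91 (adjusted p = 0.0024). Cdh5, which did not exceed 1.26 CPM, was the lower one, at -1.56 (adjusted p = 0.002). The summed fibroblast markers were alike under TNF and the other agents (log2 ratio of the mean sums, 0.01), while single members went both ways. Of the 10, 4 were higher and 2 lower with LPS than with TNF (21.5% and 21.5% of all genes), the 2 lower being close to that share. Fn1 was higher with LPS by 1.01 (adjusted p = 8.70e-09). With IL-1b against TNF, 4 were higher and 5 lower (of all genes, 15.2% were higher and 15.2% lower, 30.4% in all). The part of these other cell types in the differences of the macrophage markers was not tested.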

How the data were processed

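Polyadenylated RNA of the 20 cultures was sequenced to 50 nt from 1 end, per the labels' protocols. The submitters' processing notes list cutadapt 1.12, featureCounts 1.5.1, STAR and DESeq2, and the build mm10 (GRCm38). Not given in the sources used here are the annotation, how multi-mapping reads were handled and whether strand was used. The authors deposited raw counts per gene (whole numbers) for all libraries in 1 table, and all columns were used.

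CPM are counts per 1000000 of the library total multiplied by its TMM factor, and log2 CPM have a prior count of 2. A gene entered the tests with 1 CPM or more in 2 or more libraries. These 14023 genes hold 99.9% of all counts. edgeR 4.0.16 (R 4.3.3, robust quasi-likelihood F test) was fitted on the whole table with terms for genotype and condition, which leaves 9 residual degrees of freedom. The fit treats the 10 matched pairs as replicates of the genotype difference. Whether they come from independent cultures or embryos is not stated, so they may not replicate genotype. Genotype by agent was fitted on the 18 stimulated libraries (6 residual degrees of freedom). P-values were adjusted by Benjamini-Hochberg over all tested genes, with a threshold of 0.05. The common biological coefficient of variation was 10.6%. An SE is the absolute log2 change over the square root of its F. The script was tested on simulated data.

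Named genes are the 10 markers, up to 5 tested genes with the highest mean CPM in each other list, the 10 genes most alike in pattern, and Rel and Rela. Markers and lists were chosen with earlier results of these data known. Alternatives were RLE scaling, library totals, no filter, DESeq2 1.42.0, leaving out each library, leaving out both LPS 3 h libraries (genotype only) and, added after seeing the data, agent means over 0.5 and 1 h.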

Additional observations from a re-analysis of the deposited data

How the results depend on the processing

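Of the 76 marker values past the threshold, tried under the other settings (331 values in all), 317 kept their direction and their side of the threshold, 12 kept the direction only and 2 turned. Those 2 were Fcer1g at 3 h of LPS against 0 h with library totals (-0.27) and Ptprc for LPS minus TNF over 0.5 and 1 h only (-0.17). Counts of markers called moved with library totals, with the early means and with single libraries. With totals, 7 were lower at 1 h of IL-1b, 1 was higher at 3 h of LPS, 0 were higher for LPS minus TNF, 4 were lower for LPS minus IL-1b, and for LPS at 3 h minus 0.5 h 1 was higher and 5 were lower. DESeq2 called 2 markers higher for LPS minus IL-1b. Without the filter, 2 were lower for LPS at 3 h minus 0.5 h. Over 0.5 and 1 h only, 0 were higher for LPS minus TNF, and for LPS minus IL-1b 0 were higher and 0 lower. RLE scaling moved no count by more than 1.5 times.

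When 1 library at a time was left out, none of the 76 values turned, and 72 of 1520 values lost the threshold. The markers called lower ranged from 0 to 5 at 1 h of IL-1b, 4 to 7 at 3 h of IL-1b, 1 to 7 at 0.5 h of LPS, 2 to 4 for LPS minus IL-1b and 0 to 3 for LPS at 3 h minus 0.5 h. Those called higher ranged from 1 to 3 at 3 h of LPS, 0 to 1 at 1 h of TNF, 1 to 3 for LPS minus IL-1b, 0 to 1 for IL-1b at 3 h minus 0.5 h and 2 to 5 for TNF at 3 h minus 0.5 h. Between genotypes 3 to 4 were lower. Of values not past the threshold, Ptprc ranged from -0.01 to 0.06 between genotypes and Spi1 from -0.01 to 0.25 at 0.5 h of TNF. Leaving out a library also removes its partner's weight in the genotype comparison and leaves 1 library on that side of a contrast, assumed to vary like the others. The cause of the other changes was not tested. The genotype comparison is paired by condition as fitted, and the labels carry no replicate numbers for a further block. Depth limits F13a1, with 5 to 103 counts a library.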
